A study of Bos taurus with 8 samples.

Results

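The chemokine genes CXCL8, CXCL10, CCL2 and CCL5 were followed in blood mononuclear cells of 2 cattle breed groups, Tharparkar and crossbred, as RNA pools from day 0 and from day 7 of heat exposure. They were taken from the expression tables by their Ensembl gene IDs, the only names the tables give, and these 4 genes are among 24596 listed genes. PBMCs, the lymphocytes and monocytes of blood, were taken from Tharparkar, an Indian zebu breed, and from crossbred cattle whose parent breeds the labels do not name. The 4 groups were crossbred at day 0, crossbred at day 7, Tharparkar at day 0 and Tharparkar at day 7. Day 0 is before the heat, although the labels put "heat stress" on those samples as well. For each group the RNA of 5 animals was pooled, and 2 files labelled as replicates were deposited. The question of the series is whether the breeds respond differently to heat.

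Chemokines are small secreted proteins that direct the migration of white blood cells through G protein-coupled receptors. They are named by the spacing of their leading cysteines, which are adjacent in the CC class and separated by a residue in the CXC class. In blood mononuclear cells, stimulated monocytes are a known source of CXCL8, CCL2 and CXCL10, while T cells and NK cells are a known source of CCL5. CXCL8 (ENSBTAG00000019716) attracts neutrophils through CXCR1 and CXCR2. CCL2 (ENSBTAG00000025250) attracts monocytes through CCR2. CXCL10 (ENSBTAG00000001725) is induced by interferon and attracts activated T cells through CXCR3. CCL5 (ENSBTAG00000007191), also called RANTES, attracts T cells and monocytes. In the RefSeq gene table of ARS-UCD2.0, CXCL8 and CXCL10 lie on the same chromosome, CXCL8 near CXCL5, PPBP and PF4, and CXCL10 near CXCL9 and CXCL11. CCL2 and CCL5 share another chromosome, CCL2 beside CCL11 and CCL8, and CCL5 beside CCL16 and CCL14. The build behind the deposited tables is not given in the sources used here, so no coordinates are given.

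Total expected counts (estimated reads per gene, summed) lay between 5173115 and 8593506 per file, lowest in Tharparkar at day 7. The files of a group differed by less than sampling noise. The median chi-square ratio between them was 0.0762 to 0.112, where independent reads of 1 library give 1. They were counted as 1 library, so every group has n = 1, no difference below was tested against variation between animals, and no p-value is given. The 95% intervals cover counting error only. In pooled bulk RNA, fewer cells of a type and less RNA per cell cannot be told apart, and cell type markers were not read, because the tables name genes by ID only.

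CXCL8 and CCL2 were lower at day 7 than at day 0 in Tharparkar and higher in crossbred. CCL5 was lower at day 7 in both breeds, and less so in crossbred. CXCL10 rested on at most 32 reads in a file and showed no difference beyond counting error. All 4 genes passed the filter on low counts, each is listed with 1 transcript, and their expected counts had no decimals in any of the 8 files. How reads that match several genes were treated for them was not tested.

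Levels between the genes can be compared in TPM, which is scaled per length (732 bases for CCL5 to 1481 for CXCL8). CCL5 had the highest TPM of the 4 in crossbred at day 0 and in Tharparkar at both days, and CXCL8 had the highest in crossbred at day 7. CCL2 lay below both and CXCL10 lowest in every library. CCL5 ranked between 156 and 211 from the top among the genes detected in a library, and CXCL8 between 155 and 395. CCL2 ranged more widely in rank, from 3640 in crossbred at day 0 to 1309 in crossbred at day 7. Its mean TPM ran from 27.0 to 84.3, and that of CXCL8 from 281.5 to 1116, so the wider range is a matter of rank. CXCL10 lay between the percentiles 33.1 and 37.5 of detected genes. Together the 4 genes took 0.119% of counts in crossbred at day 0 and 0.198% at day 7. In Tharparkar they took 0.134% at day 0 and 0.0801% at day 7.

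**Figure D1:**
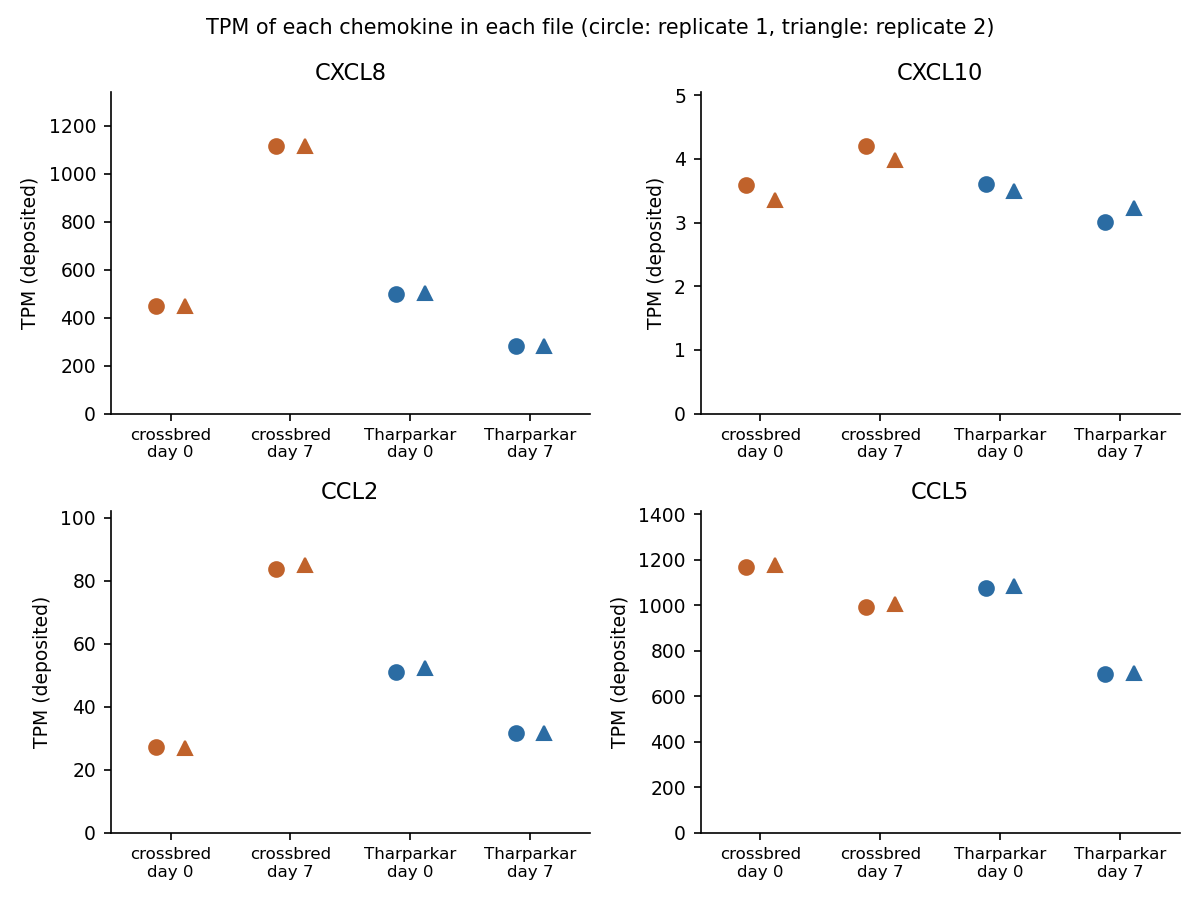
Deposited TPM (vertical axis, from 0, a separate scale for each gene) of the 4 chemokines in each of the 8 files, circles for replicate 1 and triangles for replicate 2, orange for crossbred and blue for Tharparkar. CXCL8 and CCL2 are highest in crossbred at day 7 (1116 and 84.3 TPM as means), while CCL5 is lowest in Tharparkar at day 7 (700.48 TPM).

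CXCL8 gave 447.69 and 450.30 TPM in the files of crossbred at day 0, and 1117.08 and 1115.68 at day 7. In Tharparkar it gave 498.30 and 502.18 TPM at day 0, and 283.01 and 280.00 at day 7. The days did not overlap in either breed, and the order by CPM (a gene's counts relative to the library's total, with TMM scaling of the totals) ran from crossbred at day 7 over Tharparkar at day 0 and crossbred at day 0 down to Tharparkar at day 7. Each neighbouring pair in that order differed beyond counting error. In crossbred the day 7 level was 2.33-fold the day 0 level, or 1.22 on the log2 scale (95% counting interval from 1.17 to 1.27). Among all 11711 genes past the filter, 4.49% were higher by at least as much. In Tharparkar the level at day 7 was 1.88-fold lower, a log2 fold change of -0.91 (-0.99 to -0.83), which stayed short of the threshold of 1 log2 unit. Here 5.51% of all genes were lower by at least as much. Counted only among genes with a mean of at least 10 CPM, these shares were 2.39% in crossbred and 3.14% in Tharparkar.

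CCL2 showed the same signs at a lower level. Its counts were 153 and 150 in crossbred at day 0 and 442 and 446 at day 7, or 27.0 and 84.3 TPM as means. In Tharparkar the counts were 246 and 249 at day 0 and 117 and 116 at day 7, or 51.6 and 31.6 TPM. The level at day 7 was thus 2.90-fold that of day 0 in crossbred, a log2 fold change of 1.53 (1.28 to 1.82), and 2.20% of all genes were higher by at least as much. In Tharparkar it was 1.72-fold lower, a log2 fold change of -0.78 (-1.12 to -0.46), short of the threshold, and 7.57% of all genes were lower by at least as much. The shares among genes with a mean of at least 10 CPM were 0.99% in crossbred and 4.72% in Tharparkar. CCL2 had its lowest value in crossbred at day 0, where CXCL8 had it in Tharparkar at day 7. The log2 difference of CCL2 between these 2 libraries, Tharparkar at day 7 minus crossbred at day 0, was 0.39 (0.03 to 0.75) with TMM. It was 0.34 (-0.02 to 0.70) with total counts and 0.22 (-0.13 to 0.59) with TPM, scalings chosen for this pair after seeing the data, so the order of the 2 lowest libraries is not beyond counting error under each scaling.

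CCL5 was high in every library. Its files gave 1168.47 and 1177.69 TPM in crossbred at day 0 and 993.84 and 1003.64 at day 7. Those of Tharparkar gave 1076.91 and 1082.68 TPM at day 0 and 699.89 and 701.08 at day 7. The level was lower at day 7 in both breeds, by a log2 fold change of -0.71 (-0.78 to -0.63) in Tharparkar and of -0.33 (-0.38 to -0.27) in crossbred, neither past the threshold. With total counts the crossbred value was -0.21, outside that interval. The crossbred difference was not unusual in size, since 26.7% of all genes were lower by at least as much. In Tharparkar 9.16% were. Of the genes with a mean of at least 10 CPM, 24.8% in crossbred and 6.05% in Tharparkar were.

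CXCL10 rested on few reads. The crossbred files held 29 and 27 reads of it before heat, then 32 and 30 at day 7. The Tharparkar files held 25 and 24 reads before heat, then 16 and 17 at day 7. The log2 fold change at day 7 was 0.13 in crossbred (-0.64 to 0.94) and -0.25 in Tharparkar (-1.27 to 0.69). With total counts the crossbred value was 0.24 and with TPM the Tharparkar value was -0.14, both inside these intervals. None of the 6 pairs of libraries differed beyond counting error, so a difference of up to about these limits was not detectable at this depth.

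**Figure D2:**
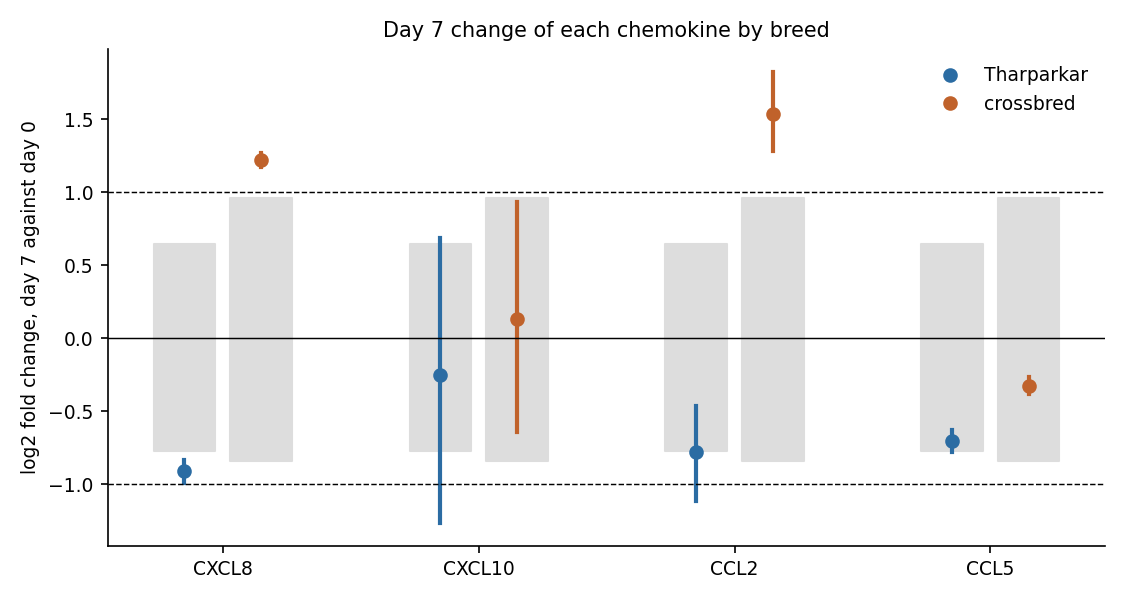
Log2 fold change of day 7 against day 0 (vertical axis) for each chemokine, blue for Tharparkar and orange for crossbred, with bars for the exact 95% counting interval, dashed lines at the threshold of 1 log2 unit and grey bands for the 5th to 95th percentile of genes with a mean of at least 10 CPM. CXCL8 and CCL2 lie at 1.22 and 1.53 in crossbred and at -0.91 and -0.78 in Tharparkar, while both intervals of CXCL10 span 0.

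At the threshold of 1 log2 unit, 2 of the 4 chemokines, CXCL8 and CCL2, were higher at day 7 in crossbred, where 7.49% of all genes were higher and 5.35% lower. In Tharparkar 0 of 4 passed the threshold, where 3.75% of all genes were higher and 4.53% lower. Among genes with a mean of at least 10 CPM, 4.44% were higher in crossbred and 2.46% lower in Tharparkar. The counting interval lay below 0 for 3 of 4 members in Tharparkar, as it did for 18.7% of all genes. This share depends on read number, since genes with few reads have wide intervals. It was not counted among genes with a mean of at least 10 CPM. The median log2 change of the 4 was -0.74 in Tharparkar against -0.01 over all genes. In crossbred it was 0.68 against 0.002, a median that hides the opposite signs of CCL5 and the other members. The split of called genes moves with the scaling: the higher ones were 58.3% of those called in crossbred with TMM and 69.2% with total counts, and 45.3% and 57.1% in Tharparkar with TMM and with TPM. The members' own day 7 differences kept their signs under every scaling tried.

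The difference between the day 7 changes, Tharparkar minus crossbred, was largest for CCL2, at a log2 value of -2.31 (-2.75 to -1.92). For CXCL8 it was -2.13 (-2.22 to -2.04). These 2 members passed the threshold of 1 log2 unit, as 15.1% of all genes did in that direction. CCL5 differed by -0.38 (-0.48 to -0.29) and CXCL10 by -0.39 (-1.58 to 0.75). Genes lower in Tharparkar and higher in crossbred, with both counting intervals clear of 0, made up 10.4% of all genes, and CXCL8 and CCL2 are among them. Changes at least as large as those of CXCL8 in both breeds were found in 1.55% of all genes, 180 besides CXCL8 itself. For CCL2 the share was 0.92%, with 107 genes besides CCL2. CCL5 belongs to the 3.75% of genes that were lower in both breeds with both intervals clear of 0. The shares of genes with intervals clear of 0 depend on read number here too.

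**Figure D3:**
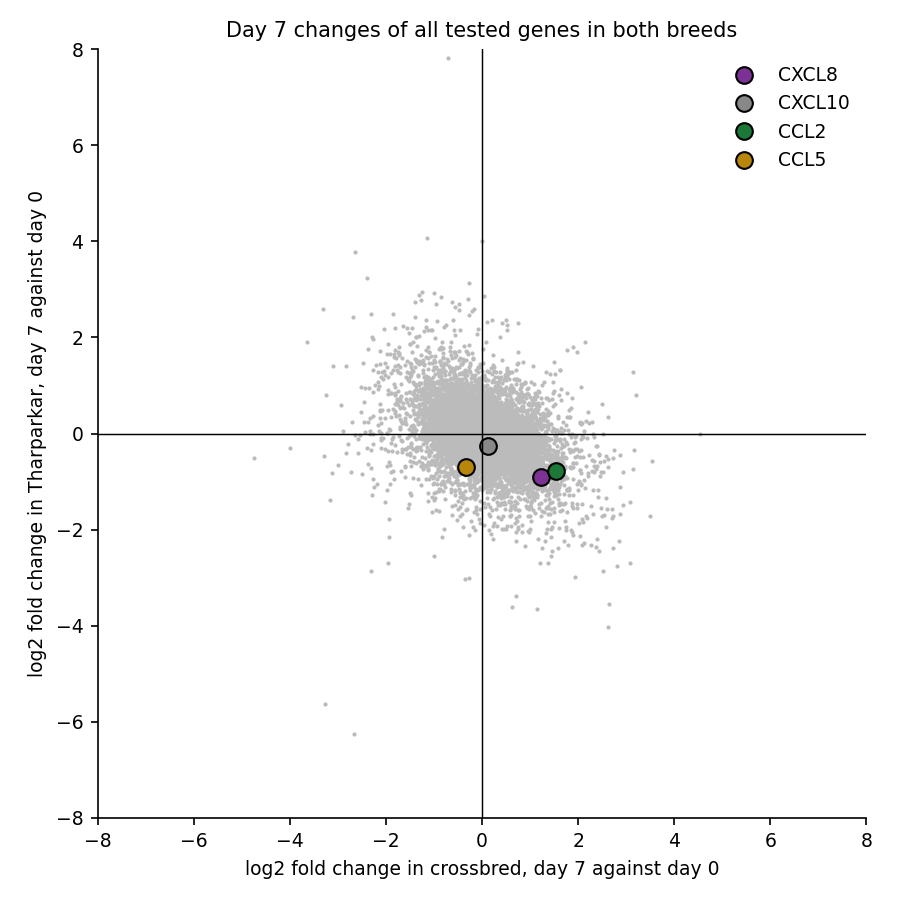
Log2 fold change of day 7 against day 0 in Tharparkar (vertical axis) against that in crossbred (horizontal axis), with a grey point for each of the 11711 genes past the filter and the 4 chemokines in colour. CXCL8 and CCL2 lie together at the lower right, lower in Tharparkar and higher in crossbred, and CCL5 lies at the lower left.

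Between the breeds before heat, CCL2 was 2.25-fold higher in Tharparkar, a log2 difference of 1.17 (0.88 to 1.48). It was the 1 member of 4 past the threshold, where 3.10% of all genes were higher in Tharparkar and 3.92% lower. With TPM the difference was 0.91, short of the threshold. CXCL8 was higher in Tharparkar by 0.40 (0.34 to 0.46), and this value depends on the scaling: it was 0.16 with TPM. CCL5 differed by 0.13 (0.07 to 0.18) with TMM and by -0.12 with TPM, so its direction between the breeds at day 0 changes with the scaling. CXCL10 differed by 0.26 (-0.56 to 1.12) with TMM and by 0.026 with TPM.

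After 7 days of heat the order of the breeds was the other way round for CXCL8 and CCL2. CXCL8 was 3.31-fold lower in Tharparkar than in crossbred, a log2 difference of -1.73 (-1.80 to -1.66), and 2.57% of all genes were lower by at least as much. CCL2 was 2.21-fold lower, a log2 difference of -1.15 (-1.46 to -0.86), and 7.55% of all genes were lower by at least as much. With only genes of a mean of at least 10 CPM counted, these shares were 0.93% for CXCL8 and 4.49% for CCL2. These 2 of 4 members passed the threshold, where 9.79% of all genes were lower in Tharparkar and 5.08% higher. CCL5 was lower by a log2 value of -0.25 (-0.33 to -0.18) with TMM and of -0.51 with TPM. CXCL10 differed by -0.13 (-1.09 to 0.77) with TMM and by -0.31 with TPM. Of the genes called between the breeds, those higher in Tharparkar were 44.2% at day 0 and 34.2% at day 7 with TMM, and 19.4% and 15.3% with TPM.

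Ratios of chemokines within a library do not depend on how libraries are scaled. The TPM ratio of CXCL8 to CCL5 was 0.383 (0.368 to 0.398) in crossbred at day 0, 0.463 (0.444 to 0.483) in Tharparkar at day 0 and 0.402 (0.378 to 0.428) in Tharparkar at day 7. It was 1.12 (1.08 to 1.16) in crossbred at day 7, the 1 library in which CXCL8 exceeded CCL5. The ratio of CCL2 to CCL5 was 0.0230 (0.0194 to 0.0270) and 0.0844 (0.0764 to 0.0931) in crossbred at days 0 and 7. In Tharparkar it was 0.0478 (0.0419 to 0.0544) and 0.0452 (0.0372 to 0.0545), with overlapping intervals. In crossbred both ratios to CCL5 were thus higher at day 7, without overlap of the intervals. In Tharparkar the ratio of CXCL8 to CCL5 was lower at day 7, also without overlap. The ratio of CXCL8 to CCL2 was 16.6 (14.2 to 19.7) and 13.2 (12.1 to 14.6) in crossbred, and 9.69 (8.52 to 11.1) and 8.90 (7.38 to 10.8) in Tharparkar. Its intervals overlapped between the days of each breed and did not overlap between the breeds on either day. Overlap alone does not show that a ratio was unchanged. In crossbred the intervals of the log2 day 7 changes did not overlap, at 1.17 to 1.27 for CXCL8 and 1.28 to 1.82 for CCL2.

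**Figure D4:**
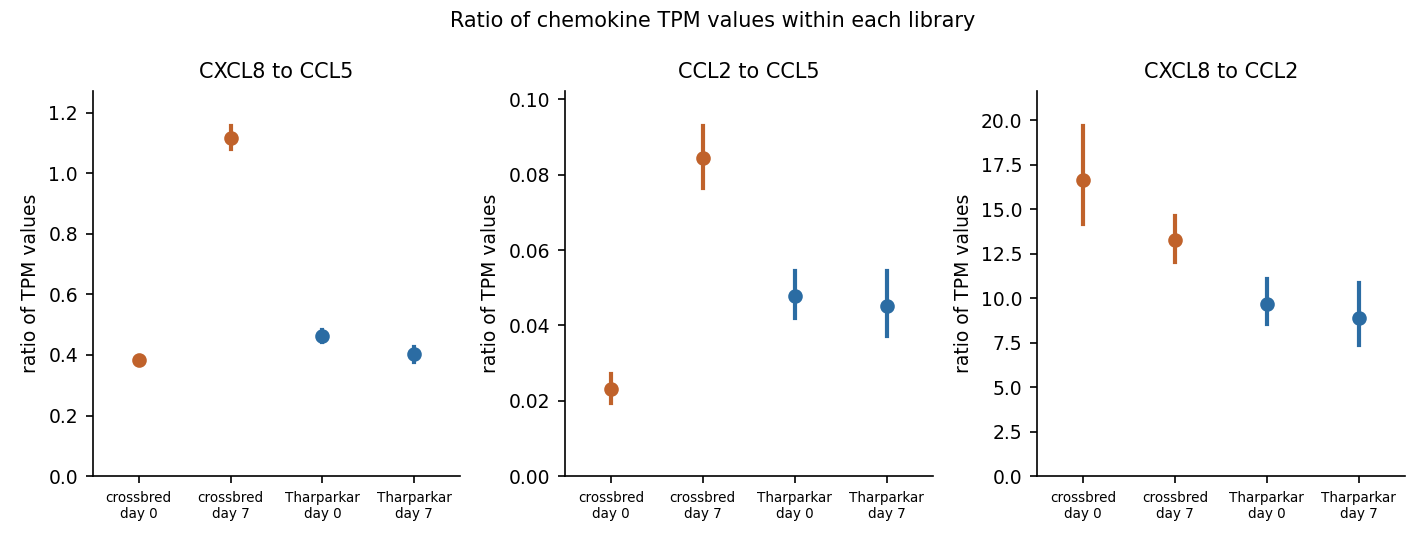
TPM ratios of CXCL8 to CCL5, CCL2 to CCL5 and CXCL8 to CCL2 (vertical axes, from 0) within each of the 4 libraries, orange for crossbred and blue for Tharparkar, with bars for the exact 95% counting interval. The first 2 ratios are highest in crossbred at day 7 (1.12 and 0.0844), and the ratio of CXCL8 to CCL2 is lower in both Tharparkar libraries than in both crossbred libraries.

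The likeness of patterns was measured as the Euclidean distance over the 4 libraries between log2 CPM values centred on each gene's mean, so that 0 is an identical pattern. Between members it was 0.717 for CXCL8 and CCL2, 1.26 for CXCL8 and CCL5 and 1.32 for CCL2 and CCL5. For CXCL10 and CCL5 it was 0.476, close to the median distance of 0.474 between CXCL10 and all candidates. CXCL10 lay farther from CCL2, at 1.06, and from CXCL8, at 1.16. The distances of CXCL10 rest on 16.5 to 31 counts per library and are uncertain to that degree. CCL2 was not among the closest genes to CXCL8: it came at rank 618 among the 7769 genes with a mean of at least 10 CPM. The nearest gene to CXCL8 was ENSBTAG00000016769, at a distance of 0.0692, with log2 changes of 1.15 in crossbred and -0.84 in Tharparkar. The nearest to CCL2 was ENSBTAG00000008006, at 0.0569, with changes of 1.49 and -0.72. The nearest to CCL5 was ENSBTAG00000014496, at 0.0650, with changes of -0.34 and -0.79, and the nearest to CXCL10 was ENSBTAG00000033413, at 0.00989. These nearest genes are known here by ID only. The median distance of all candidates was 1.34 to CXCL8, 1.27 to CCL2 and 0.709 to CCL5.

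**Figure D5:**
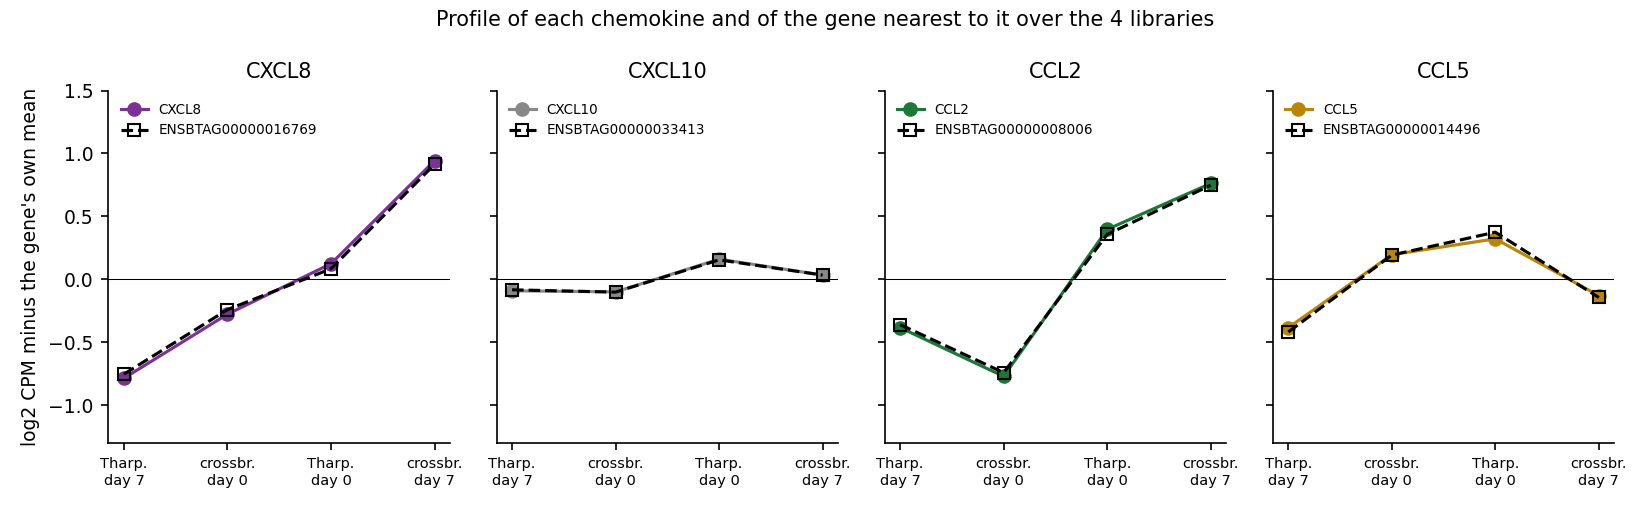
Log2 CPM minus the gene's own mean (vertical axis) over the 4 libraries for each chemokine (filled circles, solid line) and for the gene nearest to it (open squares, dashed line), ordered from Tharparkar day 7 to crossbred day 7 as CXCL8 is. CXCL8 climbs through the whole order, CCL2 has its lowest point in crossbred at day 0, CCL5 its highest in Tharparkar at day 0 (with TMM, while with TPM its difference from crossbred at day 0 is -0.12), and the CXCL10 pattern lies within its counting error.

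The chemokine transcripts are 732 to 1481 bases long in the tables. The 3057 genes of that length range had a median log2 day 7 change of 0.02 in Tharparkar, against -0.01 over all genes, and of -0.04 in crossbred, against 0.002. For the difference of these changes, Tharparkar minus crossbred, the median of the length range was 0.09 against -0.0015. Tharparkar against crossbred, it was 0.05 against 0.003 at day 0 and 0.12 against 0.003 at day 7. Depth also differed, with the fewest reads in Tharparkar at day 7. The part of length and depth in the results was not tested.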

How the data were processed

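Bowtie2 and RSEM are named in the submitters' processing notes, without versions or roles. The genome build, annotation and filters are not given in the sources used here. Each deposited table holds expected counts, TPM and FPKM, per the file headers, with gene length and effective length as other columns; the authors' TPM and FPKM values were used only for levels, ratios and alternatives. Libraries were made from total RNA with a NEBNext Ultra kit, per the labels' protocols.

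The files of each group were compared by a chi-square per gene (at least 20 counts in both together, limit 1.5) and their expected counts averaged. Means were filtered (filterByExpr, edgeR 4.0.16, R 4.3.3; 11711 genes left), TMM-scaled and converted to log2 CPM with a prior count of 2. A gene was called at 1 log2 unit. Ratio intervals are exact Clopper-Pearson (95%), those of the difference of changes a normal approximation. Expected counts were rounded for edgeR and DESeq2 (1.42.0) tests with files as replicates, which are alternatives comparing libraries. The steps were tested on simulated data. The simulated fold changes carried counting error only, without variation between animals or pools. Named genes were the members and the nearest gene to each. The members and lists were chosen with earlier results of these data known. The RefSeq table at hand matched 0 of 24596 IDs, so lists of other chemokines, receptors, inducers and cell type markers were not evaluated.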

Additional observations from a re-analysis of the deposited data

Results flagged for a closer look

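By sign alone, 3 of the 4 chemokines were lower at day 7 than at day 0 in Tharparkar and higher in crossbred, as were 32.2% of all genes past the filter. The difference of the log2 changes, Tharparkar minus crossbred, was -2.13 for CXCL8, -2.31 for CCL2 and -0.39 for CXCL10. None of these differences was tested, since each group is 1 pool. For CXCL10 the counting intervals of both changes and of the difference (-1.58 to 0.75) include 0.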

How the results depend on the processing

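Counting limits CXCL10 most, with 16.5 to 31 counts per library, and with a mean of at least 10 CPM it has no value. With DESeq2 size factors, a prior count of 0.5, no filter, or each file left out, all values of the 4 chemokines stayed within their counting intervals. Total counts, TPM and FPKM, in that order, gave these values outside them. CXCL8 at day 7 against day 0 was 1.33, 1.31 and 1.33 in crossbred, and -0.83 in Tharparkar (TPM only). Tharparkar against crossbred, CXCL8 was 0.28, 0.16 and 0.28 at day 0, and -1.90, -1.98 and -1.89 at day 7. CCL5 at day 7 against day 0 was -0.21, -0.23 and -0.21 in crossbred, and -0.62 in Tharparkar (TPM only). Tharparkar against crossbred, CCL5 was 0.0078, -0.12 and 0.0076 at day 0, and -0.42, -0.51 and -0.42 at day 7. By construction these scalings shift every gene. The median shift from TMM to total counts was 0.11 for the crossbred change, and for Tharparkar against crossbred -0.12 before heat and -0.16 after it. From TMM to TPM the latter 2 were -0.23 and -0.25. Deviations of same-numbered files of different groups had an r across genes between -0.0908 and 0.104. Since the files of a group differed by less than sampling noise, this cannot show whether same-numbered files share more than a number. Taking files as replicates, with a replicate block for their number, edgeR kept all 4 chemokines within their counting intervals (CXCL8 at -0.91 in Tharparkar and 1.22 in crossbred), and the replicate block moved its calls from 5575 to 5580 genes in Tharparkar and from 7686 to 7692 in crossbred (Benjamini-Hochberg adjusted p under 0.05). Files of 1 library give no valid spread, so these calls compare libraries and say nothing of conditions.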
